A study of Homo sapiens with 6 samples.

Results

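The comparison set 22Rv1 cells treated with Drug_0120 against 22Rv1 cells given vehicle, over all genes measured. The 22Rv1 line is a long-used culture of human prostate carcinoma cells. The series is about small molecules aimed at the linker histone H1-10. Drug_0120 appears in the treatment notes as 0120-0018, and the cells received it at its IC50, a concentration defined by inhibition of a chosen response. Neither the concentration, the response it was set on nor the length of treatment is given in the sources used here. Each group held 2 libraries made from polyA RNA, and nothing states whether these were independent cultures. The p-values therefore weigh a difference only against how far libraries of a group differ, which may be technical. A pair of libraries from a second compound, Drug_CN27, entered the fit only to help estimate that spread. All libraries came from the same line with no genetic change named, grown as its supplier recommends.

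Values are in TPM, a transcript level scaled within each library for transcript length and for the library's total. Genes were chosen by level alone: at least 1 TPM in at least 2 of the 4 Drug_0120 and vehicle libraries, which kept 13336 of the 20297 genes in the table. Changes are differences in log2(TPM + 1), Drug_0120 minus vehicle, and the ± after a change is its standard error with 2 libraries a group. This scale understates the change of genes near or under 1 TPM. A gene was said to rise or fall when limma's moderated test, with Benjamini-Hochberg adjustment over all 13336 genes, gave an adjusted p under 0.05.

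Linker histones bind where DNA enters and leaves the nucleosome and compact the chromatin fibre. H1-10, whose gene appears in the table under its older symbol H1FX, is a replication-independent member of that family and is made throughout the cell cycle. Dividing cells make messages for DNA replication and for mitosis in pulses, through E2F factors before S phase and through FOXM1 and related factors before mitosis. Immediate early genes, such as those of AP-1, are known for rapid, short-lived induction by growth factors and stress.

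The labelled cell type was checked against its markers. All 11 luminal prostate markers were in the table and passed the level filter, and their TPM sums were 1946 to 1969 with Drug_0120, against 2827 to 2834 in vehicle. KLK3, the prostate-specific antigen gene, was low throughout, at 0.850 and 0.281 TPM with Drug_0120, against 7.71 and 6.12 TPM in vehicle (log2 change -2.35 ± 0.18, limma adjusted p = 2.1e-06). Leukocyte markers summed to 4.89 to 4.90 TPM with Drug_0120, against 3.68 to 4.67 TPM in vehicle, with CD3E and TYROBP at 0 in all 4 libraries. Fibroblast markers summed to 30.1 to 32.0 TPM with Drug_0120, against 48.0 to 49.8 TPM in vehicle, with FAP and POSTN at 0. Endothelial markers summed to 5.47 to 5.72 TPM with Drug_0120, against 11.9 to 13.2 TPM in vehicle, with CDH5 at 0. Basal epithelial markers summed to 65.0 to 65.9 TPM with Drug_0120, against 16.1 to 17.1 TPM in vehicle; NGFR and LAMB3 made up most of that sum, while KRT5 and KRT14 were at 0. The part these markers play in the results was not tested.

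Most genes differed between the groups. Of 13336 genes, 10980 (82.3%) passed the test, 4881 (36.6%) of them higher with Drug_0120 and 6099 (45.7%) lower. A change of at least 2-fold was called for 1570 genes (11.8%) upward and 2741 genes (20.6%) downward. That balance depended on scaling, with 2139 upward and 2407 downward when each table was rescaled to the same total. The libraries of the groups did not overlap for 12150 genes (91.1%), so that lack of overlap alone sets no gene apart here. The median change over all genes was -0.10. Replicates correlated across genes at r = 0.996 in both groups, on the log2(TPM + 1) scale.

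The table accounted for less of the transcript pool after Drug_0120. TPM that sit outside the table made up 28.8% and 27.97% of the full sum with Drug_0120, against 19.3% and 18.1% in vehicle. Both Drug_0120 libraries were above both vehicle libraries, with means of 28.4% ± 0.604 with Drug_0120 and 18.7% ± 0.829 in vehicle (SD, n = 2 libraries each). The difference was 9.67 percentage points, larger than the spread within either group, while an exact two-sided permutation test over the 4 libraries gave p = 0.333, the smallest value it can give. Without the 10 genes of highest mean TPM, the shares were 29.5% with Drug_0120 and 19.6% in vehicle. TPM of all quantified transcripts have a fixed sum by definition. Of the 20297 genes listed, 19826 are protein-coding and 0 belong to the mitochondrial genome. The transcripts that make up the remainder were not analysed here. In bulk samples such as these, a share of TPM shows neither the number of cells nor the amount of RNA per cell.

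The shortfall was spread over many genes rather than lodged in a few. Across the whole table, 8532 genes gained 141018 TPM and 9603 genes dropped by 237723 TPM, so that the table's sum dropped by 96705 TPM. The 10 largest losses carried 8.77% of all losses, and the 10 largest gains carried 13.2% of all gains. Genes averaging 100 to 1000 TPM, 1381 in number, summed to 277760 TPM with Drug_0120, against 337497 TPM in vehicle, which is more of the net loss than any other class of level. The 85 genes at or above 1000 TPM summed to 156154 TPM with Drug_0120, against 166262 TPM in vehicle. The number of genes at or above 100 TPM was 1357 and 1360 with Drug_0120, against 1611 and 1651 in vehicle. The log2 ratio of the table sums, Drug_0120 over vehicle, was -0.18. Rescaling each table to the same total moved the median change of all genes from -0.10 to 0.06, so medians of lists stand beside that of all genes in what follows.

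Named gains and losses of TPM showed which products filled or left the pool. GDF15, a secreted stress cytokine, had 5087 and 5406 TPM with Drug_0120, against 142 and 143 TPM in vehicle (log2 change 5.19 ± 0.068, limma adjusted p = 8.8e-10). It became the most abundant message of the table in the second Drug_0120 library. MT2A, a metal-binding metallothionein, had 1979 and 2246 TPM with Drug_0120, against 117 and 125 TPM in vehicle (log2 change 4.12 ± 0.082, limma adjusted p = 2.6e-09). VGF, a neuropeptide precursor, had 2321 and 2402 TPM with Drug_0120, against 774 and 793 TPM in vehicle, PEG10, a retrotransposon-derived imprinted gene, had 1894 and 1636 TPM with Drug_0120, against 372 and 331 TPM in vehicle, and SLC3A2, the heavy chain of several amino acid exchangers, had 1626 and 1669 TPM with Drug_0120, against 187 and 186 TPM in vehicle. The remaining large gains were in the ribosomal protein gene RPS27, the cyclin-dependent kinase inhibitor CDKN1A, the metallothionein MT1G, the ferritin heavy chain FTH1 and the AP-1 subunit JUND. Among losses, TMSB10, a thymosin that sequesters actin monomers, had 2157 and 2377 TPM with Drug_0120, against 5827 and 5841 TPM in vehicle (log2 change -1.36 ± 0.078, limma adjusted p = 3.8e-07). TUBA1B, an alpha-tubulin with close paralogs whose reads may be shared, had 219 and 218 TPM with Drug_0120, against 2697 and 2834 TPM in vehicle (log2 change -3.66 ± 0.059, limma adjusted p = 1.5e-09). CKB, the brain-type creatine kinase, had 145 and 155 TPM with Drug_0120, against 2372 and 2586 TPM in vehicle, and PTMA, an acidic nuclear protein that binds linker histone H1, had 564 and 567 TPM with Drug_0120, against 2579 and 2535 TPM in vehicle. GAPDH, a glycolytic enzyme often used as a reference gene, had 2622 and 2669 TPM with Drug_0120, against 4914 and 5319 TPM in vehicle (log2 change -0.95 ± 0.066, limma adjusted p = 1.3e-06). RPS2, a ribosomal protein gene, had 4415 and 4625 TPM with Drug_0120, against 6333 and 6676 TPM in vehicle. Its log2 change was -0.52 ± 0.075, but 0.074 after GC correction, where it did not pass the test. For every gene given with values here the Drug_0120 libraries lay on one side of the vehicle libraries, as in 91.1% of all genes.

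**Figure D1:**
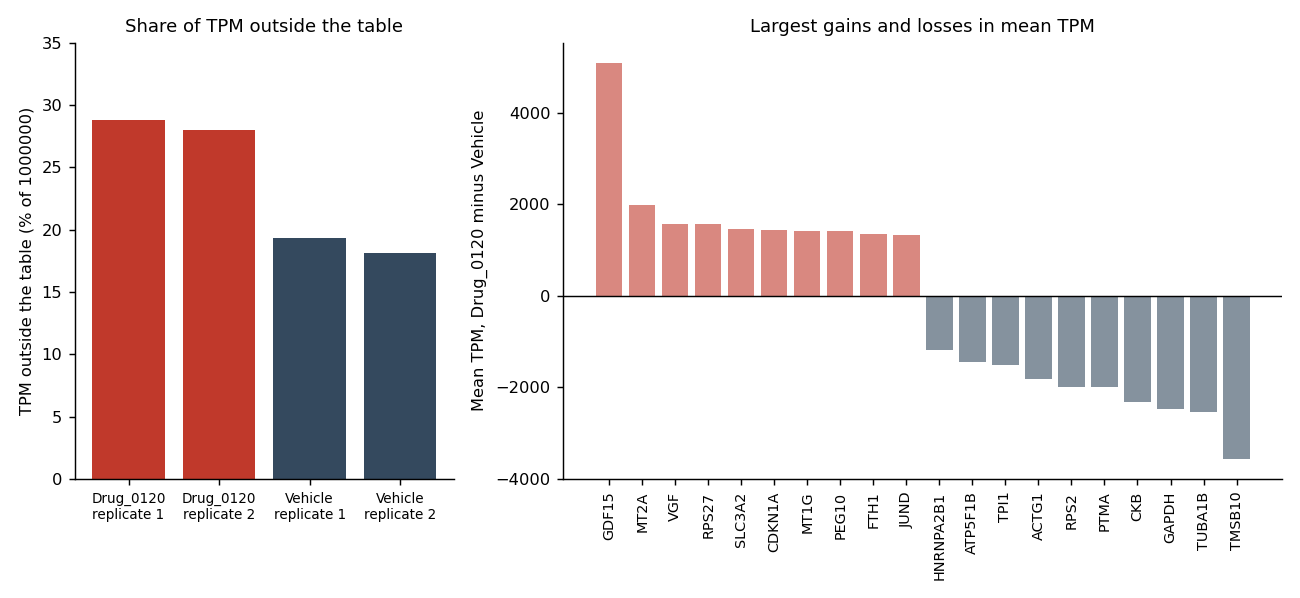
Left, the share of TPM outside the table in each library as bars, in percent of the full TPM sum; right, the mean TPM of Drug_0120 minus that of vehicle for the 10 largest gains and the 10 largest losses. Both Drug_0120 bars stand at 27.97% or more and both vehicle bars at 19.3% or less. GDF15 has the largest gain and TMSB10 the largest loss. RPS2, drawn as a loss, had a log2 change of 0.074 after GC correction and did not pass the test there.

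The largest relative rises were in genes close to silent in vehicle. MMP1, an interstitial collagenase, had 213 and 212 TPM with Drug_0120, against 0.428 and 0.242 TPM in vehicle (log2 change 7.32 ± 0.11, limma adjusted p = 1.5e-09). MMP10, a stromelysin, had 318 and 324 TPM with Drug_0120, against 0.840 and 1.35 TPM in vehicle (log2 change 7.28 ± 0.11, limma adjusted p = 1.5e-09). CES1, a carboxylesterase that hydrolyses drugs and lipid esters, had 94.1 and 99.97 TPM with Drug_0120, against 0.131 and 0.0780 TPM in vehicle (log2 change 6.47 ± 0.10, limma adjusted p = 1.5e-09). These 3 lay between 94.1 and 324 TPM in the Drug_0120 libraries and at or under 1.35 TPM in the vehicle libraries. CGA, the common alpha subunit of the glycoprotein hormones, had 92.8 and 101 TPM with Drug_0120, against 0.418 and 0.699 TPM in vehicle, and EID3, a subunit of the SMC5/6 complex, had 98.6 and 109 TPM with Drug_0120, against 1.07 and 1.26 TPM in vehicle. RRAD, a RAS-like GTPase, had 49.3 and 53.05 TPM with Drug_0120, against 1.34 and 1.39 TPM in vehicle. The largest falls mixed mitotic genes with surface and signalling proteins. PIMREG, a mitotic gene, had 1.22 and 1.97 TPM with Drug_0120, against 71.7 and 74.8 TPM in vehicle (log2 change -4.85 ± 0.14, limma adjusted p = 9.7e-09). CHRNA2, a nicotinic acetylcholine receptor subunit, had 0.326 and 0.302 TPM with Drug_0120, against 32.1 and 32.7 TPM in vehicle (log2 change -4.67 ± 0.095, limma adjusted p = 2.7e-09). APLN, which encodes the secreted peptide apelin, had 21.2 and 22.6 TPM with Drug_0120, against 501 and 502 TPM in vehicle (log2 change -4.46 ± 0.059, limma adjusted p = 8.8e-10). Only genes without overlap were eligible for these rises and falls, so the separation in these 3 follows from the rule of choice. NT5DC2, a member of the 5'-nucleotidase family, had 13.4 and 12.9 TPM with Drug_0120, against 280.3 and 310.3 TPM in vehicle. HMMR and DLGAP5, both of which act on spindle microtubules, had 2.77 and 2.38 TPM and 1.09 and 1.39 TPM with Drug_0120, against 82.5 and 79.3 TPM and 46.7 and 42.5 TPM in vehicle. Falls outside the cell cycle included PLA2G3, a secreted phospholipase, SNCG, gamma-synuclein, KREMEN2, a receptor for Dickkopf proteins, and MATK, a kinase that acts on SRC-family kinases. CCDC74A is listed among the falls, at 5.13 and 5.96 TPM with Drug_0120, against 123 and 135 TPM in vehicle, but it has a close copy in the genome and its level is uncertain.

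**Figure D2:**
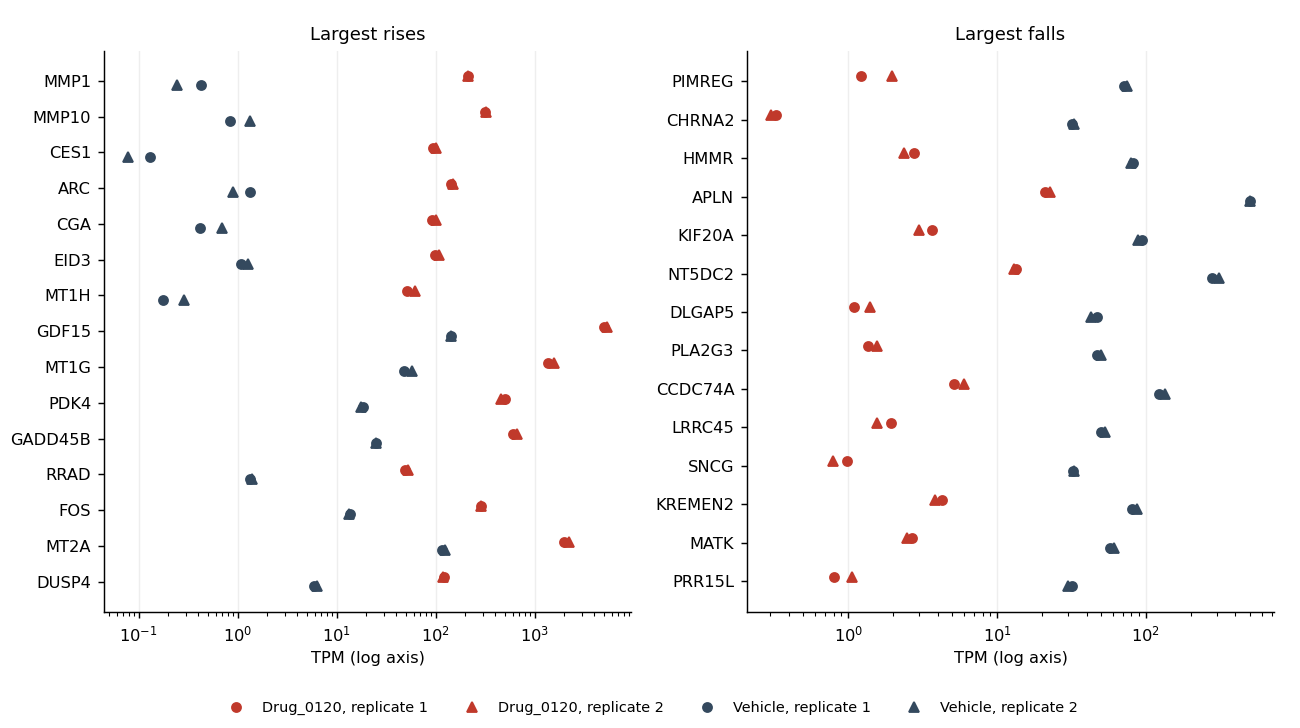
TPM in each of the 4 libraries, on a log axis, for the largest rises (left) and the largest falls (right) among genes with at least 20 TPM in the higher group; red marks Drug_0120 and dark blue vehicle, with circles for replicate 1 and triangles for replicate 2. Replicates lie close together. The groups are apart in every gene drawn because only genes without overlap could be chosen. MMP1, MMP10 and CES1 were at or under 1.35 TPM in both vehicle libraries.

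Genes for starting and copying DNA fell nearly as one block. Of 25 genes for replication licensing and the replicative helicase, 23 fell and 1 rose, with a median change of -1.82, against 45.7% lower and 36.6% higher among all genes. MCM6, a subunit of the MCM2-7 helicase loaded at origins, had 8.26 and 8.71 TPM with Drug_0120, against 60.2 and 57.8 TPM in vehicle (log2 change -2.66 ± 0.072, limma adjusted p = 8.1e-09). CDC45, which joins that helicase when it fires, had 9.22 and 10.6 TPM with Drug_0120, against 92.1 and 103 TPM in vehicle (log2 change -3.18 ± 0.086, limma adjusted p = 8.2e-09). MCM4 and MCM2 of the same helicase had 52.4 and 53.002 TPM and 39.1 and 38.9 TPM with Drug_0120, against 237 and 228 TPM and 181 and 186 TPM in vehicle. The exception was ORC4, an origin recognition subunit, which had 9.33 and 9.17 TPM with Drug_0120, against 5.68 and 5.53 TPM in vehicle (log2 change 0.63 ± 0.10, limma adjusted p = 4.0e-04). Of 26 DNA polymerase subunits and clamp genes, 24 fell and 0 rose (median -1.38). POLE2, of the leading-strand polymerase, had 1.75 and 1.66 TPM with Drug_0120, against 27.8 and 25.995 TPM in vehicle (log2 change -3.37 ± 0.090, limma adjusted p = 7.8e-09). PCNA, the sliding clamp, had 106 and 111 TPM with Drug_0120, against 389 and 404 TPM in vehicle (log2 change -1.86 ± 0.056, limma adjusted p = 1.2e-08). PRIM1, the catalytic primase subunit, had 10.4 and 8.97 TPM with Drug_0120, against 51.1 and 51.9 TPM in vehicle, and POLD1, the catalytic subunit of polymerase delta, had 27.6 and 28.8 TPM with Drug_0120, against 97.4 and 107 TPM in vehicle.

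Genes that supply nucleotides mostly fell too. Of 27 genes of purine and pyrimidine synthesis, 25 fell and 1 rose (median -1.51). RRM2, the S-phase subunit of ribonucleotide reductase, had 17.1 and 16.2 TPM with Drug_0120, against 169.5 and 163 TPM in vehicle (log2 change -3.24 ± 0.063, limma adjusted p = 2.2e-09). Its stand-in RRM2B, a p53-inducible subunit used outside S phase, was the 1 member that rose, with 65.2 and 62.8 TPM with Drug_0120, against 27.5 and 25.6 TPM in vehicle (log2 change 1.24 ± 0.092, limma adjusted p = 2.0e-06). TK1, thymidine kinase, had 16.1 and 17.4 TPM with Drug_0120, against 164 and 174 TPM in vehicle, IMPDH1, of guanine nucleotide synthesis, had 17.6 and 18.5 TPM with Drug_0120, against 169 and 179 TPM in vehicle, and PAICS, of purine ring synthesis, had 34.6 and 32.5 TPM with Drug_0120, against 148 and 150.3 TPM in vehicle.

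Most of the E2F factors fell themselves. Of 10 E2F and DP genes, 8 fell and 1 rose (median -1.31). E2F1, an activator, had 13.98 and 14.04 TPM with Drug_0120, against 78.98 and 81.6 TPM in vehicle (log2 change -2.44 ± 0.065, limma adjusted p = 7.7e-09). E2F2, a second activator, had 3.58 and 3.40 TPM with Drug_0120, against 42.7 and 41.7 TPM in vehicle (log2 change -3.27 ± 0.078, limma adjusted p = 5.0e-09). E2F8 and E2F7, the atypical repressors that peak in S phase, had 0.954 and 0.855 TPM and 2.74 and 2.50 TPM with Drug_0120, against 13.8 and 13.03 TPM and 12.2 and 10.8 TPM in vehicle. TFDP1, the main DP partner, had 52.7 and 52.2 TPM with Drug_0120, against 139 and 133 TPM in vehicle, E2F3 had 8.17 and 7.35 TPM with Drug_0120, against 20.3 and 19.4 TPM in vehicle, and TFDP2 had 10.7 and 9.50 TPM with Drug_0120, against 18.8 and 16.99 TPM in vehicle. These falls were far larger than the spread between replicates. E2F4, which works mainly in repressor complexes, fell by 0.34 on the log2 scale, with 76.9 and 78.2 TPM with Drug_0120, against 96.5 and 101 TPM in vehicle (limma adjusted p = 0.0017), but its log2 change was 0.091 after GC correction and it did not pass the test after quantile normalization. E2F6 had 20.7 and 19.9 TPM with Drug_0120, against 15.8 and 14.3 TPM in vehicle (log2 change 0.41 ± 0.082, limma adjusted p = 0.0013), and E2F5, with 8.24 and 8.05 TPM with Drug_0120, against 8.38 and 8.64 TPM in vehicle (log2 change -0.06 ± 0.13, limma adjusted p = 0.693), did not pass the test.

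Spindle genes had the lowest median of the lists described. Of 37 spindle checkpoint and chromosomal passenger genes, 34 fell, 31 of them at least 2-fold, and 1 rose (median -2.34). CDC20, the activator of the anaphase-promoting complex, had 30.3 and 30.8 TPM with Drug_0120, against 491 and 514 TPM in vehicle (log2 change -3.99 ± 0.066, limma adjusted p = 1.5e-09). PLK1, a kinase of mitotic entry, had 14.97 and 14.7 TPM with Drug_0120, against 217 and 221 TPM in vehicle (log2 change -3.80 ± 0.065, limma adjusted p = 1.5e-09). AURKB and BIRC5, partners in the passenger complex, had 11.6 and 12.01 TPM and 22.5 and 22.5 TPM with Drug_0120, against 164 and 180.1 TPM and 206 and 214 TPM in vehicle. FZR1, the activator that replaces CDC20 in G1, was the exception, at 32.1 and 32.8 TPM with Drug_0120, against 26.3 and 29.2 TPM in vehicle (log2 change 0.22 ± 0.079, limma adjusted p = 0.028), a call that was lost without vehicle replicate 1 (log2 change 0.15), Drug_0120 replicate 1 (0.23) or Drug_0120 replicate 2 (0.20). MKI67, the proliferation antigen Ki-67, had 6.05 and 5.32 TPM with Drug_0120, against 64.01 and 57.1 TPM in vehicle (log2 change -3.20 ± 0.097, limma adjusted p = 1.2e-08).

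The promoters of CDC20, PLK1 and MCM6 are shown because cell cycle genes are classically repressed through short elements near their start sites. Each sequence is the 250 bases before the annotated start, 5′ to 3′, from RefSeq on GRCh38.p14, a newer build than the hg19 of the deposited values. In CDC20 (chr1:43358731-43358980, plus strand) and PLK1 (chr16:23678639-23678888, plus strand), capitals mark the cell cycle homology region TTTGAA and the CCAAT box, on either strand. In MCM6 (chr2:135876444-135876693, minus strand), capitals mark the E2F element TTGGCGC, on either strand.
CDC20: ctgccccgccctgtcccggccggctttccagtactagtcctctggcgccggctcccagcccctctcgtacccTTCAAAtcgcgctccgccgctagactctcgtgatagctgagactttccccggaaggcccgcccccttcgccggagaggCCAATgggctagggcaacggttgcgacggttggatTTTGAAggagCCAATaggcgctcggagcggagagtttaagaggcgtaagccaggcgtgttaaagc
PLK1: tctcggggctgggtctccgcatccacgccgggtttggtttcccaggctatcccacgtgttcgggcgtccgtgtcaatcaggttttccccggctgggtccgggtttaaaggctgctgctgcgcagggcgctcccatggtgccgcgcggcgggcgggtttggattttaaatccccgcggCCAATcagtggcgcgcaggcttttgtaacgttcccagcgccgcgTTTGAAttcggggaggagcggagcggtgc
MCM6: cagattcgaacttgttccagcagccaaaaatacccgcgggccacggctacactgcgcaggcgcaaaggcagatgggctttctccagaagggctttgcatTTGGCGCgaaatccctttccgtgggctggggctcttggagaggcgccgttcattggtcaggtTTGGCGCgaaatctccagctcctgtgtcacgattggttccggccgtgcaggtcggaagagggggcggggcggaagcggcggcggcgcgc
CDC20 holds 2 matches to each of its letter sets, PLK1 holds 1 to each, and MCM6 holds 2 of the E2F form. Over the 10645 tested genes with a promoter in the table, 8.16% hold TTTGAA and 35.5% hold CCAAT. Among the spindle genes, 13 of 27 with a promoter (48.1%) hold TTTGAA and 19 (70.4%) hold CCAAT. Of all genes lowered at least 2-fold, 9.01% hold TTTGAA and 35.9% CCAAT, and of those raised at least 2-fold, 9.64% and 36.8%. The E2F form TTGGCGC is in 4.26% of all promoters and in 2 of 21 (9.52%) of those of licensing genes. The other E2F form, TTCCCGC, is in 9.03% of all and in 6 of 21 (28.6%) of licensing promoters. A match is a description of the letters, not of a bound site.

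Most kinetochore genes fell as well. Of 34 kinetochore and centromere genes, 28 fell and 3 rose (median -1.66). ZWINT and NDC80, of the outer kinetochore, had 35.7 and 38.1 TPM and 8.89 and 10.5 TPM with Drug_0120, against 191 and 193 TPM and 65.1 and 62.8 TPM in vehicle. SPC24, which anchors the NDC80 complex, had 4.54 and 5.85 TPM with Drug_0120, against 55.5 and 57.8 TPM in vehicle (log2 change -3.23 ± 0.11, limma adjusted p = 1.7e-08), and CENPX, a centromere protein that also serves DNA repair, had 35.6 and 38.6 TPM with Drug_0120, against 245 and 274 TPM in vehicle. The 3 that rose were MIS12, at 57.7 and 58.3 TPM with Drug_0120, against 23.04 and 21.2 TPM in vehicle (log2 change 1.35 ± 0.078, limma adjusted p = 4.0e-07), CENPC, at 9.84 and 9.47 TPM with Drug_0120, against 5.71 and 5.22 TPM in vehicle, and CENPQ, at 21.6 and 23.1 TPM with Drug_0120, against 14.9 and 14.9 TPM in vehicle. Kinesins divided in a like way. Of 34 kinesin motors, 22 fell and 7 rose (median -1.04). KIF20A, needed for cytokinesis, had 3.65 and 2.99 TPM with Drug_0120, against 93.7 and 89.2 TPM in vehicle (log2 change -4.42 ± 0.091, limma adjusted p = 2.7e-09). KIF2C, a microtubule depolymerase of mitosis, had 16.2 and 15.6 TPM with Drug_0120, against 108 and 110.2 TPM in vehicle, and KIFC1, a minus-end spindle motor, had 11.6 and 11.8 TPM with Drug_0120, against 94.9 and 99.7 TPM in vehicle. KIF20B, also a cytokinesis motor, rose against the trend of its relatives, to 12.9 and 11.8 TPM with Drug_0120, against 2.12 and 1.91 TPM in vehicle (log2 change 2.15 ± 0.10, limma adjusted p = 1.2e-07). The transport motors KIF3B and KIF13B rose as well, at 84.4 and 75.8 TPM and 17.7 and 16.6 TPM with Drug_0120, against 47.3 and 44.1 TPM and 8.60 and 7.95 TPM in vehicle.

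Condensin genes led the falls among complexes that shape chromosomes. Of 23 genes, 15 fell and 4 rose (median -0.73). The 4 largest falls by the test statistic were all condensin subunits. NCAPD2 had 29.5 and 29.98 TPM with Drug_0120, against 153 and 148 TPM in vehicle (log2 change -2.30 ± 0.058, limma adjusted p = 6.3e-09), and NCAPD3 had 22.8 and 20.3 TPM with Drug_0120, against 142 and 134 TPM in vehicle (log2 change -2.63 ± 0.073, limma adjusted p = 8.9e-09). NCAPH and NCAPG2 had 16.6 and 16.1 TPM and 13.5 and 11.6 TPM with Drug_0120, against 75.3 and 72.5 TPM and 63.5 and 57.8 TPM in vehicle. The 4 rises were in genes that load or regulate cohesin. NIPBL, the loader, had 56.9 and 50.2 TPM with Drug_0120, against 19.2 and 16.7 TPM in vehicle (log2 change 1.52 ± 0.10, limma adjusted p = 1.2e-06), and its partner MAU2 had 62.1 and 61.98 TPM with Drug_0120, against 35.1 and 36.3 TPM in vehicle (log2 change 0.78 ± 0.062, limma adjusted p = 3.0e-06). PDS5B and the acetyltransferase ESCO1 had 9.13 and 7.63 TPM and 23.5 and 21.3 TPM with Drug_0120, against 3.70 and 3.10 TPM and 16.4 and 15.02 TPM in vehicle.

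Cyclins changed in both directions. Of 23 cyclin genes, 11 rose and 10 fell (median 0.14, or 0.071 without vehicle replicate 1 and 0.25 without vehicle replicate 2). The mitotic cyclin CCNB1 had 23.2 and 23.8 TPM with Drug_0120, against 246 and 246 TPM in vehicle (log2 change -3.33 ± 0.063, limma adjusted p = 2.2e-09), CCNA2 had 13.8 and 12.9 TPM with Drug_0120, against 139 and 135 TPM in vehicle (log2 change -3.26 ± 0.065, limma adjusted p = 2.6e-09), and CCNB2 had 27.5 and 27.2 TPM with Drug_0120, against 148 and 148 TPM in vehicle. The transcription and splicing cyclins CCNL1 and CCNL2 had 109.7 and 109.8 TPM and 250.5 and 270.3 TPM with Drug_0120, against 42.7 and 42.8 TPM and 122 and 129 TPM in vehicle. CCNG1, a p53 target, had 242 and 229.8 TPM with Drug_0120, against 96.1 and 90.6 TPM in vehicle (log2 change 1.33 ± 0.079, limma adjusted p = 4.7e-07). Groups did not overlap in any of these 6 cyclins, which was also so for 91.1% of all genes. CDKN1A, the p21 inhibitor of cyclin-dependent kinases, had 1762 and 1820.01 TPM with Drug_0120, against 342 and 357 TPM in vehicle (log2 change 2.35 ± 0.055, limma adjusted p = 4.6e-09). GADD45B had 605 and 672 TPM with Drug_0120, against 24.9 and 25.1 TPM in vehicle (log2 change 4.62 ± 0.076, limma adjusted p = 1.5e-09). MYC, the growth-promoting factor, had 69.4 and 71.7 TPM with Drug_0120, against 232 and 226 TPM in vehicle (log2 change -1.68 ± 0.062, limma adjusted p = 3.1e-08).

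AP-1 and EGR, NR4A and IER genes mostly rose, while the ID and HES repressors, also early-response genes, had 4 higher and 6 lower of 11 (median -0.39). Of 13 AP-1 genes, 11 rose and 2 fell (median 2.09). FOS, the prototype of the family, had 285 and 291 TPM with Drug_0120, against 13.8 and 13.5 TPM in vehicle (log2 change 4.30 ± 0.059, limma adjusted p = 8.8e-10). JUND had 1445 and 1529 TPM with Drug_0120, against 147 and 159 TPM in vehicle (log2 change 3.27 ± 0.063, limma adjusted p = 2.2e-09), and JUN, its classical partner, had 179 and 183 TPM with Drug_0120, against 45.3 and 46.6 TPM in vehicle (log2 change 1.96 ± 0.060, limma adjusted p = 1.3e-08). MAFF, a small MAF protein, had 83.1 and 89.2 TPM with Drug_0120, against 8.22 and 9.22 TPM in vehicle (log2 change 3.17 ± 0.082, limma adjusted p = 6.7e-09). The falls were in BATF3 and JDP2, with 1.05 and 1.14 TPM and 0.356 and 0.945 TPM with Drug_0120, against 11.3 and 15.2 TPM and 1.66 and 2.43 TPM in vehicle; JDP2 is a repressor of AP-1. Of 16 EGR, NR4A and IER genes, 15 rose and 0 fell (median 1.80). EGR1, a zinc finger factor induced by serum and stress, had 712 and 699 TPM with Drug_0120, against 42.4 and 43.5 TPM in vehicle (log2 change 4.01 ± 0.054, limma adjusted p = 8.8e-10). ARC, a synaptic immediate early gene, had 144 and 149.9 TPM with Drug_0120, against 1.34 and 0.892 TPM in vehicle (log2 change 6.14 ± 0.12, limma adjusted p = 2.7e-09). NR4A2, an orphan nuclear receptor, had 39.7 and 39.4 TPM with Drug_0120, against 2.42 and 2.22 TPM in vehicle, and CYR61, a secreted matrix protein, had 41.4 and 43.95 TPM with Drug_0120, against 5.15 and 5.29 TPM in vehicle.

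EGR1 is the textbook target of serum response factor, which binds CArG boxes (CC, then 6 bases of A or T, then GG). Its 250 bases before the start (chr5:138465229-138465478, plus strand, GRCh38.p14, RefSeq) are shown with those boxes in capitals, searched on both strands.
EGR1: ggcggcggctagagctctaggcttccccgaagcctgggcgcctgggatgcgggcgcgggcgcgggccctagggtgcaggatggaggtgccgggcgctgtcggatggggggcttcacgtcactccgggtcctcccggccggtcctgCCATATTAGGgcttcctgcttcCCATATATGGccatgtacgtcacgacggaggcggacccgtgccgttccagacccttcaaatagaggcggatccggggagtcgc
The window holds 2 CArG boxes, which are found in 0.977% of all promoters, in 1.48% of those of genes raised at least 2-fold and in 2 of 11 of the EGR, NR4A and IER list. The AP-1 letters TGANTCA are in 3.76% of all promoters, in 6.43% of those of genes raised at least 2-fold and in 3.19% of those lowered at least 2-fold. Among AP-1 genes, 0 of 10 promoters hold them. The TATA letters TATAAA are in 5.49% of all promoters, in 10.0% of those raised at least 2-fold and in 5.30% of those lowered at least 2-fold. No test was made of these shares.

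Ligands, receptors and brakes of growth factor signalling also moved. Of 7 EGF-family genes, 5 rose and 2 fell (median 1.09). The ligands rose: AREG, amphiregulin, had 14.7 and 15.7 TPM with Drug_0120, against 0.757 and 0.531 TPM in vehicle (log2 change 3.30 ± 0.12, limma adjusted p = 2.5e-08), HBEGF had 17.4 and 18.01 TPM with Drug_0120, against 4.62 and 5.33 TPM in vehicle (log2 change 1.65 ± 0.095, limma adjusted p = 4.1e-07), and TGFA had 5.47 and 4.42 TPM with Drug_0120, against 1.86 and 1.69 TPM in vehicle (log2 change 1.09 ± 0.12, limma adjusted p = 2.0e-05). The receptors EGFR and ERBB3 fell, with 40.9 and 36.2 TPM and 20.5 and 18.8 TPM with Drug_0120, against 80.5 and 70.4 TPM and 42.6 and 40.97 TPM in vehicle, while ERBB2 rose, with 54.4 and 54.1 TPM with Drug_0120, against 41.03 and 43.4 TPM in vehicle (log2 change 0.36 ± 0.066, limma adjusted p = 8.0e-04). ERRFI1, an intracellular inhibitor of EGFR, had 291 and 277 TPM with Drug_0120, against 53.2 and 51.2 TPM in vehicle (log2 change 2.42 ± 0.066, limma adjusted p = 8.0e-09). Of 16 MAP kinase phosphatase and Sprouty genes, which switch the pathway off, 12 rose and 2 fell (median 1.46). DUSP4, a nuclear MAP kinase phosphatase, had 122 and 119 TPM with Drug_0120, against 5.93 and 6.36 TPM in vehicle (log2 change 4.09 ± 0.073, limma adjusted p = 1.6e-09). DUSP6, selective for ERK, had 39.6 and 42.9 TPM with Drug_0120, against 4.02 and 3.58 TPM in vehicle (log2 change 3.14 ± 0.090, limma adjusted p = 9.6e-09). DUSP1 and DUSP8 had 78.6 and 82.2 TPM and 80.1 and 83.2 TPM with Drug_0120, against 20.9 and 21.3 TPM and 18.6 and 19.5 TPM in vehicle, and DUSP7 fell, with 13.6 and 13.6 TPM with Drug_0120, against 28.5 and 27.6 TPM in vehicle.

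Other transcription factor families differed in balance. The KLF, forkhead and clock genes had more rises than falls, while SOX genes had 3 higher and 5 lower of 10, HOX genes 10 and 13 of 27, nuclear receptors 11 and 12 of 28, and the MYC, MAX and MXD network 4 and 8 of 14. Of 12 KLF genes, 9 rose and 2 fell (median 0.90). KLF4, an epithelial differentiation factor, had 127 and 126 TPM with Drug_0120, against 36.6 and 35.5 TPM in vehicle (log2 change 1.78 ± 0.057, limma adjusted p = 1.6e-08), and KLF6 had 37.6 and 36.6 TPM with Drug_0120, against 5.30 and 4.70 TPM in vehicle (log2 change 2.67 ± 0.093, limma adjusted p = 2.3e-08). KLF15 fell, with 6.40 and 5.71 TPM with Drug_0120, against 16.3 and 15.6 TPM in vehicle. Of 30 forkhead genes, 19 rose and 7 fell (median 0.44). FOXO1, a factor held back by insulin and AKT signalling, had 28.4 and 25.3 TPM with Drug_0120, against 4.48 and 4.87 TPM in vehicle (log2 change 2.29 ± 0.096, limma adjusted p = 6.0e-08), and FOXJ3 had 105 and 98.9 TPM with Drug_0120, against 34.6 and 31.5 TPM in vehicle. FOXM1, the forkhead factor of G2 and mitosis, went the other way, with 60.8 and 58.3 TPM with Drug_0120, against 141 and 139.9 TPM in vehicle (log2 change -1.22 ± 0.057, limma adjusted p = 1.1e-07). Of 19 circadian clock genes, 13 rose and 4 fell (median 0.80). BHLHE40, a clock repressor that is also a stress-induced gene, had 20.4 and 22.1 TPM with Drug_0120, against 0.872 and 0.853 TPM in vehicle (log2 change 3.58 ± 0.097, limma adjusted p = 7.9e-09). NFIL3, a repressor of D-box genes, had 50.1 and 52.3 TPM with Drug_0120, against 3.23 and 3.86 TPM in vehicle (log2 change 3.53 ± 0.10, limma adjusted p = 9.3e-09). Its rival DBP, an activator of D-box genes, had 9.73 and 10.4 TPM with Drug_0120, against 22.7 and 20.2 TPM in vehicle (log2 change -1.02 ± 0.093, limma adjusted p = 7.5e-06). CLOCK itself fell, with 5.88 and 5.35 TPM with Drug_0120, against 13.3 and 11.1 TPM in vehicle, and CRY2, a repressor of CLOCK, rose, with 27.7 and 29.8 TPM with Drug_0120, against 11.4 and 12.2 TPM in vehicle.

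Developmental ligands and receptors were mixed. Of 30 genes of the TGF-beta and BMP pathways, 15 rose and 8 fell (median 0.29, or 0.16 without Drug_0120 replicate 1). INHBA, the activin A subunit, had 22.2 and 20.1 TPM with Drug_0120, against 1.22 and 1.23 TPM in vehicle (log2 change 3.31 ± 0.097, limma adjusted p = 1.1e-08), and TGFB1 had 2.48 and 2.55 TPM with Drug_0120, against 13.7 and 14.4 TPM in vehicle (log2 change -2.09 ± 0.10, limma adjusted p = 1.6e-07). SMURF1, a ligase for SMAD proteins, had 90.2 and 85.6 TPM with Drug_0120, against 33.6 and 31.8 TPM in vehicle. Of 19 hedgehog and Notch genes, 5 rose and 12 fell (median -0.64). The Notch ligand DLL4 had 10.9 and 11.5 TPM with Drug_0120, against 0.285 and 0.427 TPM in vehicle (log2 change 3.17 ± 0.11, limma adjusted p = 2.6e-08), and DLL1 had 9.48 and 10.6 TPM with Drug_0120, against 2.70 and 2.49 TPM in vehicle, while the ligand JAG2 fell, with 11.98 and 12.6 TPM with Drug_0120, against 30.7 and 33.5 TPM in vehicle. GLI1 and PTCH1, both induced by hedgehog signalling in other tissues, had 0.313 and 0.320 TPM and 9.55 and 7.82 TPM with Drug_0120, against 6.14 and 5.39 TPM and 27.4 and 27.3 TPM in vehicle. Of 19 ephrins and their receptors, 4 rose and 13 fell (median -0.84). EFNB2 had 30.8 and 28.5 TPM with Drug_0120, against 11.4 and 11.7 TPM in vehicle (log2 change 1.29 ± 0.079, limma adjusted p = 5.8e-07), and EFNA3 had 12.1 and 12.3 TPM with Drug_0120, against 62.7 and 65.6 TPM in vehicle (log2 change -2.30 ± 0.069, limma adjusted p = 1.2e-08). EPHB4, the receptor for EFNB2, fell, with 26.6 and 26.5 TPM with Drug_0120, against 81.6 and 81.3 TPM in vehicle.

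Secreted products changed in both directions. Of 12 secreted stress cytokines and chemokines, 7 rose and 4 fell (median 0.85). The TPM sum over all 26 genes of the list was 5764 with Drug_0120 against 433 in vehicle. GDF15 held 5247 TPM of that sum with Drug_0120 and 143 TPM in vehicle. ADM, the vasodilator adrenomedullin, had 71.6 and 78.7 TPM with Drug_0120, against 5.86 and 4.48 TPM in vehicle (log2 change 3.63 ± 0.12, limma adjusted p = 1.8e-08), and VEGFA had 180.3 and 173 TPM with Drug_0120, against 60.6 and 53.7 TPM in vehicle (log2 change 1.61 ± 0.095, limma adjusted p = 4.4e-07). AGR2, a secreted disulfide isomerase, had 111 and 114 TPM with Drug_0120, against 17.6 and 15.99 TPM in vehicle. ANGPTL4, an inhibitor of lipoprotein lipase, fell, with 10.4 and 11.1 TPM with Drug_0120, against 55.7 and 61.02 TPM in vehicle (log2 change -2.34 ± 0.083, limma adjusted p = 2.6e-08), as did CXCL16, with 6.53 and 6.78 TPM with Drug_0120, against 33.7 and 30.4 TPM in vehicle. Of 18 peptide hormone and granule genes, 10 rose and 6 fell (median 0.30), and 9 rose and 4 fell of the 13 with at least 5 TPM in 2 libraries (median 0.91). Beside VGF and APLN, CPE, a processing enzyme, had 156 and 151 TPM with Drug_0120, against 81.6 and 80.5 TPM in vehicle. CHGA, chromogranin A, was low, at 1.81 and 1.47 TPM with Drug_0120, against 6.07 and 5.82 TPM in vehicle (log2 change -1.40 ± 0.12, limma adjusted p = 3.8e-06). Of 17 matrix protease, TIMP and urokinase genes, 7 rose and 9 fell (median -0.33). That balance turned with the scaling, to 7 higher and 6 lower with each table rescaled, 8 and 5 after quantile normalization and 9 and 5 after GC correction, and the median was -0.21 without Drug_0120 replicate 2. MMP17 and MMP11 fell, with 0.227 and 0.333 TPM and 0.639 and 0.777 TPM with Drug_0120, against 9.24 and 11.2 TPM and 9.44 and 9.08 TPM in vehicle.

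Metal handling stood out by level. Of 27 metallothionein and zinc transporter genes, 17 rose and 7 fell (median 0.57). MT1G had 1354 and 1579 TPM with Drug_0120, against 48.4 and 57.6 TPM in vehicle (log2 change 4.76 ± 0.10, limma adjusted p = 3.4e-09), MT1E had 246 and 269.6 TPM with Drug_0120, against 19.7 and 21.2 TPM in vehicle, and MT1H had 51.5 and 61.6 TPM with Drug_0120, against 0.175 and 0.289 TPM in vehicle. Metallothionein genes are close copies of each other, so reads may be shared among them. SLC30A1, the zinc exporter of the plasma membrane, had 175 and 159 TPM with Drug_0120, against 17.8 and 18.04 TPM in vehicle (log2 change 3.15 ± 0.078, limma adjusted p = 5.9e-09), and SLC30A2, which moves zinc into vesicles, had 9.39 and 9.01 TPM with Drug_0120, against 0.573 and 0.382 TPM in vehicle. The zinc importers SLC39A8 and SLC39A4 fell, with 11.8 and 10.97 TPM and 5.23 and 5.14 TPM with Drug_0120, against 48.005 and 45.4 TPM and 27.3 and 30.5 TPM in vehicle.

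The MT2A promoter is shown because metallothioneins are switched on by zinc through metal response elements, whose core is TGCNCNC. Capitals mark that core on either strand in the 250 bases before the start (chr16:56608334-56608583, plus strand, GRCh38.p14, RefSeq).
MT2A: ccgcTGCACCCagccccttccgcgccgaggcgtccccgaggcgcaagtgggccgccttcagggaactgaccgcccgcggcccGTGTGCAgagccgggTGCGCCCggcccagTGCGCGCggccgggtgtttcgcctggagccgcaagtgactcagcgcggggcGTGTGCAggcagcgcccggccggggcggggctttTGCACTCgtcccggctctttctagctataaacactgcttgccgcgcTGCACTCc
The window holds 7 cores. One or more cores occur in 56.7% of all promoters and in 12 of 21 (57.1%) of those of the metallothionein and zinc transporter list.

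Antioxidant and iron genes were not uniform. Of 37 NRF2, glutathione and thioredoxin genes, 12 rose and 23 fell (median -0.40). Those that rose include inducible NRF2 targets: TXNRD1, a thioredoxin reductase, had 906 and 828 TPM with Drug_0120, against 190.3 and 181 TPM in vehicle (log2 change 2.22 ± 0.065, limma adjusted p = 1.1e-08), SRXN1, sulfiredoxin, had 346 and 351 TPM with Drug_0120, against 89.4 and 91.1 TPM in vehicle (log2 change 1.94 ± 0.052, limma adjusted p = 7.9e-09), and GCLM, of glutathione synthesis, had 109 and 97.01 TPM with Drug_0120, against 15.3 and 14.8 TPM in vehicle. SLC7A11, the cystine importer that pairs with SLC3A2, had 93.9 and 78.3 TPM with Drug_0120, against 11.1 and 9.70 TPM in vehicle (log2 change 2.93 ± 0.12, limma adjusted p = 4.9e-08). Among those that fell, PRDX2, a peroxiredoxin, had 332 and 353 TPM with Drug_0120, against 1268 and 1339 TPM in vehicle (log2 change -1.92 ± 0.065, limma adjusted p = 2.0e-08), and GPX4, which repairs lipid peroxides, had 494 and 540.3 TPM with Drug_0120, against 1520.03 and 1659.7 TPM in vehicle (log2 change -1.62 ± 0.079, limma adjusted p = 1.4e-07). Of 27 iron, heme and ferritin genes, 9 rose and 15 fell (median -0.29). HMOX1, heme oxygenase, had 85.9 and 93.5 TPM with Drug_0120, against 18.8 and 21.4 TPM in vehicle (log2 change 2.11 ± 0.083, limma adjusted p = 4.3e-08), and FTH1 had 2373 and 2590.3 TPM with Drug_0120, against 1131 and 1144 TPM in vehicle (log2 change 1.12 ± 0.10, limma adjusted p = 7.4e-06). The STEAP family genes STEAP3, STEAP1 and STEAP2 all fell. STEAP1, a prostate surface antigen, had 30.5 and 28.9 TPM with Drug_0120, against 101 and 101 TPM in vehicle (log2 change -1.74 ± 0.070, limma adjusted p = 5.0e-08).

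The gene for H1-10 fell, as did a second linker histone. H1FX, which encodes H1-10, had 176 and 191 TPM with Drug_0120, against 450.4 and 464 TPM in vehicle (log2 change -1.31 ± 0.064, limma adjusted p = 1.4e-07). H1F0, a linker histone of differentiated and quiescent cells, had 105 and 104 TPM with Drug_0120, against 382 and 373 TPM in vehicle (log2 change -1.84 ± 0.052, limma adjusted p = 9.1e-09). The replication-type linker histones rose, with HIST1H1C at 63.1 and 64.7 TPM with Drug_0120, against 24.5 and 24.7 TPM in vehicle (log2 change 1.34 ± 0.073, limma adjusted p = 2.8e-07) and HIST1H1E at 5.28 and 5.44 TPM with Drug_0120, against 1.01 and 1.02 TPM in vehicle (log2 change 1.66 ± 0.10, limma adjusted p = 5.2e-07). Those were all 4 linker histone genes that passed the level filter, of 7 in the table. Of 47 clustered histone genes, 41 rose and 1 fell (median 1.40). Their replication-type messages normally end in a stem-loop without a polyA tail, and the libraries were made from polyA RNA. HIST1H2AC had 55.6 and 60.8 TPM with Drug_0120, against 6.35 and 6.73 TPM in vehicle (log2 change 2.97 ± 0.077, limma adjusted p = 6.7e-09), and HIST2H2BE had 74.5 and 75.2 TPM with Drug_0120, against 15.997 and 14.05 TPM in vehicle (log2 change 2.25 ± 0.077, limma adjusted p = 2.2e-08). These genes are near-identical copies, and the levels of single members are uncertain. The replication-independent variants leaned down. Of 17 replacement variant and HMG genes, 12 fell and 4 rose (median -0.73). H2AFZ, of active promoters, had 542 and 573 TPM with Drug_0120, against 1423 and 1429 TPM in vehicle (log2 change -1.35 ± 0.059, limma adjusted p = 7.2e-08), and H2AFX, of DNA damage signalling, had 89.7 and 90.6 TPM with Drug_0120, against 353 and 385 TPM in vehicle (log2 change -2.02 ± 0.062, limma adjusted p = 1.3e-08). HMGA1, an architectural protein, rose, with 191 and 186 TPM with Drug_0120, against 79.04 and 87.8 TPM in vehicle (log2 change 1.17 ± 0.071, limma adjusted p = 5.4e-07).

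Chaperones that carry histones mostly fell, and enzymes that move nucleosomes were nearer to the balance of all genes. Of 28 histone chaperones, 21 fell and 7 rose (median -0.57). ASF1B and CHAF1A, which deposit histones behind the replication fork, had 18.5 and 17.7 TPM and 27.2 and 24.6 TPM with Drug_0120, against 107 and 111 TPM and 84.3 and 85.2 TPM in vehicle. SSRP1, of the FACT complex, had 140.1 and 139 TPM with Drug_0120, against 353 and 365 TPM in vehicle (log2 change -1.36 ± 0.053, limma adjusted p = 4.0e-08). SUPT6H, which travels with elongating RNA polymerase II, rose, with 99.98 and 93.5 TPM with Drug_0120, against 66.3 and 63.4 TPM in vehicle (log2 change 0.57 ± 0.064, limma adjusted p = 3.2e-05). Of 43 chromatin remodelling subunits, 25 fell and 12 rose (median -0.50). That is 58.1% lower and 27.9% higher, against 45.7% lower and 36.6% higher among all genes. RUVBL1 and RUVBL2, the ATPases shared by INO80 and SRCAP, had 46.7 and 48.6 TPM and 76.9 and 83.4 TPM with Drug_0120, against 211 and 219 TPM and 264 and 285 TPM in vehicle. SMARCB1, a core SWI/SNF subunit, had 24.8 and 22.3 TPM with Drug_0120, against 86.997 and 88.4 TPM in vehicle (log2 change -1.85 ± 0.075, limma adjusted p = 5.1e-08). The CHD-type remodellers CHD1, CHD2 and CHD8 rose; CHD1, which binds active promoters, had 50.5 and 50.2 TPM with Drug_0120, against 16.2 and 14.3 TPM in vehicle (log2 change 1.66 ± 0.14, limma adjusted p = 4.2e-06).

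Zinc finger genes rose broadly. ZNF genes mostly encode DNA-binding proteins, many with a KRAB domain that recruits repressors to transposons and genes, and they lie in clusters that are densest on chromosome 19. Of 464 tested ZNF genes, 350 rose and 48 fell (median 0.76), against 4531 higher and 6051 lower of 12872 other genes (median -0.14). Their median level was 14.4 TPM with Drug_0120 and 7.92 TPM in vehicle. On chromosome 19, 199 of 234 rose and 13 fell (median 0.97), while among the 836 other genes of that chromosome 208 rose and 506 fell (median -0.50). Elsewhere, 151 of 230 ZNF genes rose and 35 fell (median 0.55). The rise was seen at every level, with 50 of 80 higher under 5 TPM, 205 of 260 from 5 to 20 TPM and 95 of 124 at 20 TPM or more. Within bands of like GC content, only deciles 1 to 5, those of lower GC, were examined. In decile 1, the lowest, 66 of 80 ZNF genes rose, against 595 of 1245 other genes. In decile 5, 29 of 38 ZNF genes rose, against 529 of 1286 other genes. ZNF genes in the deciles of higher GC were not examined in this way, so the part of GC content in the rise remains undecided. Over the alternative settings tried, 316 to 379 ZNF genes were higher and 37 to 52 lower. No test was made of these counts.

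Single zinc finger genes changed by several fold. ZNF554 had 43.95 and 45.7 TPM with Drug_0120, against 6.38 and 6.21 TPM in vehicle (log2 change 2.65 ± 0.078, limma adjusted p = 1.1e-08), ZNF841 had 38.2 and 35.7 TPM with Drug_0120, against 5.31 and 5.25 TPM in vehicle (log2 change 2.59 ± 0.082, limma adjusted p = 1.5e-08), and ZNF77 had 69.8 and 72.8 TPM with Drug_0120, against 14.9 and 16.3 TPM in vehicle (log2 change 2.12 ± 0.075, limma adjusted p = 2.5e-08). ZNF556 was near 0 in vehicle, at 7.66 and 7.18 TPM with Drug_0120, against 0.0930 and 0.106 TPM in vehicle (log2 change 2.94 ± 0.098, limma adjusted p = 2.0e-08). The groups did not overlap in any of the 4, as in 91.1% of all genes. The leading falls were in genes without a KRAB domain. ZNF618 had 1.63 and 1.64 TPM with Drug_0120, against 16.7 and 14.8 TPM in vehicle (log2 change -2.67 ± 0.096, limma adjusted p = 2.8e-08). ZNF385A and ZNF385B, relatives of each other, had 5.54 and 5.90 TPM and 6.44 and 6.24 TPM with Drug_0120, against 26.1 and 24.1 TPM and 31.7 and 29.2 TPM in vehicle. ZNF367 had 9.09 and 9.33 TPM with Drug_0120, against 28.1 and 27.1 TPM in vehicle. Of 35 ZBTB genes, zinc finger factors with a BTB domain, 22 rose and 6 fell (median 0.48). ZBTB43 had 43.2 and 40.4 TPM with Drug_0120, against 10.3 and 9.76 TPM in vehicle (log2 change 1.95 ± 0.084, limma adjusted p = 6.9e-08), and ZBTB11 had 95.5 and 84.2 TPM with Drug_0120, against 28.6 and 26.3 TPM in vehicle. ZBTB16, the promyelocytic leukaemia zinc finger gene and an androgen-induced gene in prostate cells, fell, with 6.52 and 7.03 TPM with Drug_0120, against 42.1 and 39.9 TPM in vehicle (log2 change -2.43 ± 0.078, limma adjusted p = 1.6e-08).

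**Figure D3:**
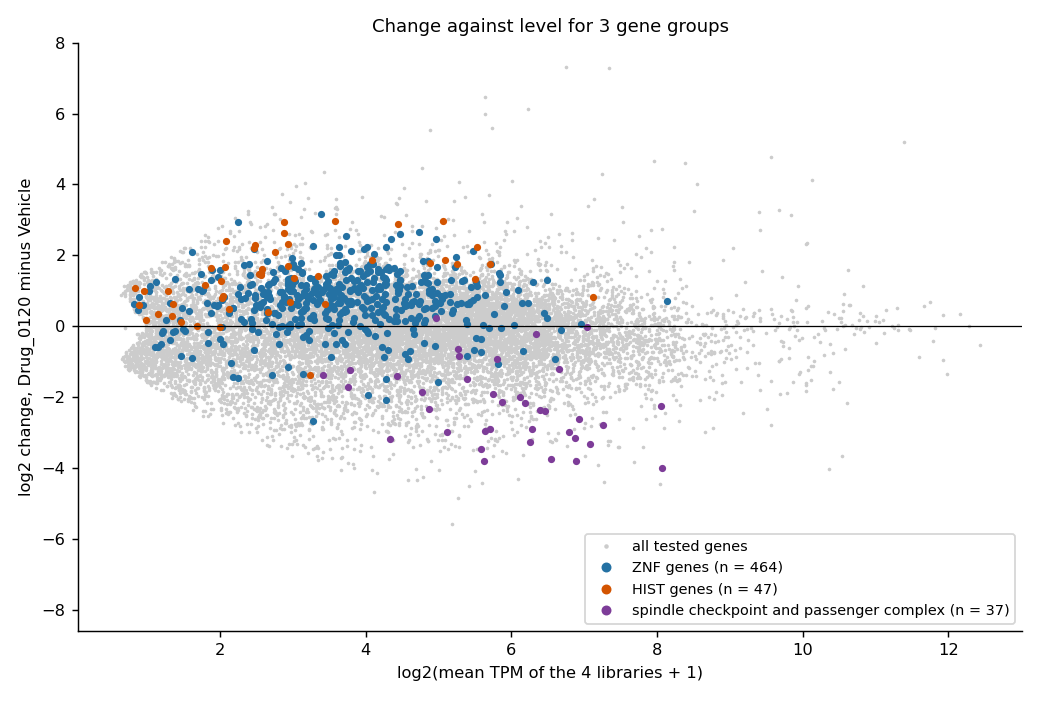
Log2 change (Drug_0120 minus vehicle) of each tested gene against its mean level over the 4 libraries, log2(mean TPM + 1), with ZNF genes in blue, clustered HIST genes in orange and spindle checkpoint and passenger genes in purple over all genes in grey. Most ZNF genes (350 of 464) and HIST genes (41 of 47) were called higher, and 34 of 37 spindle genes were called lower.

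Genes of transcription elongation leaned upward. Of 25 P-TEFb, 7SK and elongation genes, 15 rose and 4 fell (median 0.40). AFF4, the scaffold of the super elongation complex, had 98.7 and 82.3 TPM with Drug_0120, against 30.1 and 24.3 TPM in vehicle (log2 change 1.70 ± 0.12, limma adjusted p = 1.3e-06), and SUPT5H, a pausing and elongation factor, had 237 and 244 TPM with Drug_0120, against 121 and 119 TPM in vehicle (log2 change 0.998 ± 0.065, limma adjusted p = 8.7e-07). All 4 falls were in MEPCE, which caps and holds the inhibitory 7SK RNA, and in NELFA, NELFB and NELFCD of the negative elongation factor. MEPCE had 42.9 and 45.6 TPM with Drug_0120, against 96.8 and 99.3 TPM in vehicle (log2 change -1.13 ± 0.063, limma adjusted p = 3.3e-07), and NELFCD had 86.6 and 84.5 TPM with Drug_0120, against 153 and 150.2 TPM in vehicle (log2 change -0.82 ± 0.054, limma adjusted p = 9.2e-07). NELFB and NELFA had 87.6 and 90.96 TPM and 56.8 and 48.4 TPM with Drug_0120, against 136 and 146 TPM and 71.4 and 67.4 TPM in vehicle; neither passed the test after GC correction, where NELFA's log2 change was 0.17. Of 44 RNA polymerase II and Mediator genes, 24 rose and 17 fell (median 0.35). POLR2A, the catalytic subunit of the polymerase, had 40.7 and 35.2 TPM with Drug_0120, against 129.6 and 115 TPM in vehicle (log2 change -1.66 ± 0.089, limma adjusted p = 2.5e-07). Mediator subunits MED23, MED19 and MED18 rose; MED23 had 58.3 and 55.1 TPM with Drug_0120, against 17.8 and 16.8 TPM in vehicle (log2 change 1.65 ± 0.074, limma adjusted p = 8.6e-08).

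Splicing and export genes fell on balance, with kinases of SR proteins among the exceptions. Of 39 SR and hnRNP genes, 26 fell and 10 rose (median -0.36). HNRNPAB had 60.8 and 67.4 TPM with Drug_0120, against 484 and 475 TPM in vehicle (log2 change -2.89 ± 0.062, limma adjusted p = 3.4e-09), and HNRNPA2B1, an abundant packaging protein of nascent RNA, had 473 and 456 TPM with Drug_0120, against 1660.2 and 1648 TPM in vehicle (log2 change -1.83 ± 0.053, limma adjusted p = 9.7e-09). SRSF3 and SRSF2 fell, with 38.3 and 37.3 TPM and 80.1 and 73.4 TPM with Drug_0120, against 179 and 180.1 TPM and 277 and 279 TPM in vehicle. CLK1, CLK3 and CLK4, which phosphorylate SR proteins, rose; CLK1 had 126 and 125 TPM with Drug_0120, against 40.3 and 41.4 TPM in vehicle (log2 change 1.60 ± 0.073, limma adjusted p = 9.6e-08). SRSF5 rose as well, with 449 and 479 TPM with Drug_0120, against 205 and 216 TPM in vehicle. Of 39 spliceosome core genes, 24 fell and 8 rose (median -0.58). LSM2, of the U6 snRNP, had 27.4 and 28.7 TPM with Drug_0120, against 98.3 and 112 TPM in vehicle (log2 change -1.87 ± 0.075, limma adjusted p = 4.8e-08), and PRPF8, the catalytic scaffold, had 98.1 and 88.8 TPM with Drug_0120, against 246 and 230.2 TPM in vehicle (log2 change -1.34 ± 0.067, limma adjusted p = 1.6e-07). Of 22 nucleoporins, 18 fell and 2 rose (median -0.64). NUP188, of the inner ring of the pore, had 41.03 and 39.6 TPM with Drug_0120, against 145 and 141 TPM in vehicle (log2 change -1.80 ± 0.060, limma adjusted p = 1.9e-08), and NUP88, of its cytoplasmic face, had 17.8 and 18.5 TPM with Drug_0120, against 52.4 and 52.7 TPM in vehicle.

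Genes of cytosolic protein quality control mostly fell. Of 40 proteasome genes, 32 fell and 3 rose (median -0.54). PSMC3, an ATPase of the cap, had 83.4 and 80.6 TPM with Drug_0120, against 263 and 275 TPM in vehicle (log2 change -1.70 ± 0.060, limma adjusted p = 2.5e-08). PSME1 and PSME2, which form the 11S activator, had 54.1 and 58.01 TPM and 47.3 and 52.9 TPM with Drug_0120, against 224 and 229 TPM and 141 and 147 TPM in vehicle. PSMB3, of the core particle, had 136 and 135 TPM with Drug_0120, against 328 and 336 TPM in vehicle. Of 34 cytosolic heat shock and chaperonin genes, 26 fell and 5 rose (median -0.69). CCT5, of the chaperonin that folds actin and tubulin, had 31.1 and 28.7 TPM with Drug_0120, against 223 and 226 TPM in vehicle (log2 change -2.87 ± 0.060, limma adjusted p = 3.0e-09). HSPB1 had 166 and 190.1 TPM with Drug_0120, against 929.7 and 1032 TPM in vehicle (log2 change -2.46 ± 0.090, limma adjusted p = 2.9e-08), and HSPA8, the constitutive HSP70, had 779 and 759.8 TPM with Drug_0120, against 1934 and 1860.05 TPM in vehicle (log2 change -1.30 ± 0.055, limma adjusted p = 6.5e-08). The cochaperones DNAJB1 and BAG3, both targets of HSF1, rose modestly, with 142 and 145 TPM and 66.5 and 66.01 TPM with Drug_0120, against 92.1 and 90.1 TPM and 48.2 and 49.6 TPM in vehicle.

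V-ATPase genes and vesicle coat and SNARE genes mostly rose, while other traffic families were nearer to the shares of all genes. Vacuolar sorting VPS genes had 13 higher and 14 lower of 35, RAB GTPases 25 and 21 of 56, and exocyst genes 4 and 3 of 10. Of 19 V-ATPase genes, which acidify lysosomes, 13 rose and 4 fell (median 0.43). ATP6AP2 had 137 and 153 TPM with Drug_0120, against 70.03 and 66.2 TPM in vehicle (log2 change 1.08 ± 0.088, limma adjusted p = 3.6e-06), and ATP6V0E1 had 119.99 and 124 TPM with Drug_0120, against 55.9 and 64.3 TPM in vehicle (log2 change 1.01 ± 0.075, limma adjusted p = 1.8e-06). Of 45 vesicle coat and SNARE genes, 29 rose and 9 fell (median 0.46). STX3, a SNARE of the apical membrane, had 330.3 and 319.8 TPM with Drug_0120, against 43.4 and 39.9 TPM in vehicle (log2 change 2.94 ± 0.068, limma adjusted p = 4.6e-09). STX16, of the trans-Golgi network, had 148 and 147 TPM with Drug_0120, against 48.9 and 46.2 TPM in vehicle (log2 change 1.61 ± 0.063, limma adjusted p = 4.0e-08), and VAMP2, a vesicle SNARE, had 187 and 185 TPM with Drug_0120, against 82.5 and 82.1 TPM in vehicle. SEC23A, of the COPII coat, fell, with 18.6 and 17.01 TPM with Drug_0120, against 48.1 and 45.2 TPM in vehicle (log2 change -1.34 ± 0.078, limma adjusted p = 4.2e-07). Of 64 RING finger genes, many of them ubiquitin ligases, 34 rose and 19 fell (median 0.24). RNF103, a ligase of the endoplasmic reticulum, had 92.4 and 87.7 TPM with Drug_0120, against 21.6 and 18.9 TPM in vehicle (log2 change 2.10 ± 0.080, limma adjusted p = 3.6e-08).

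**Figure D4:**
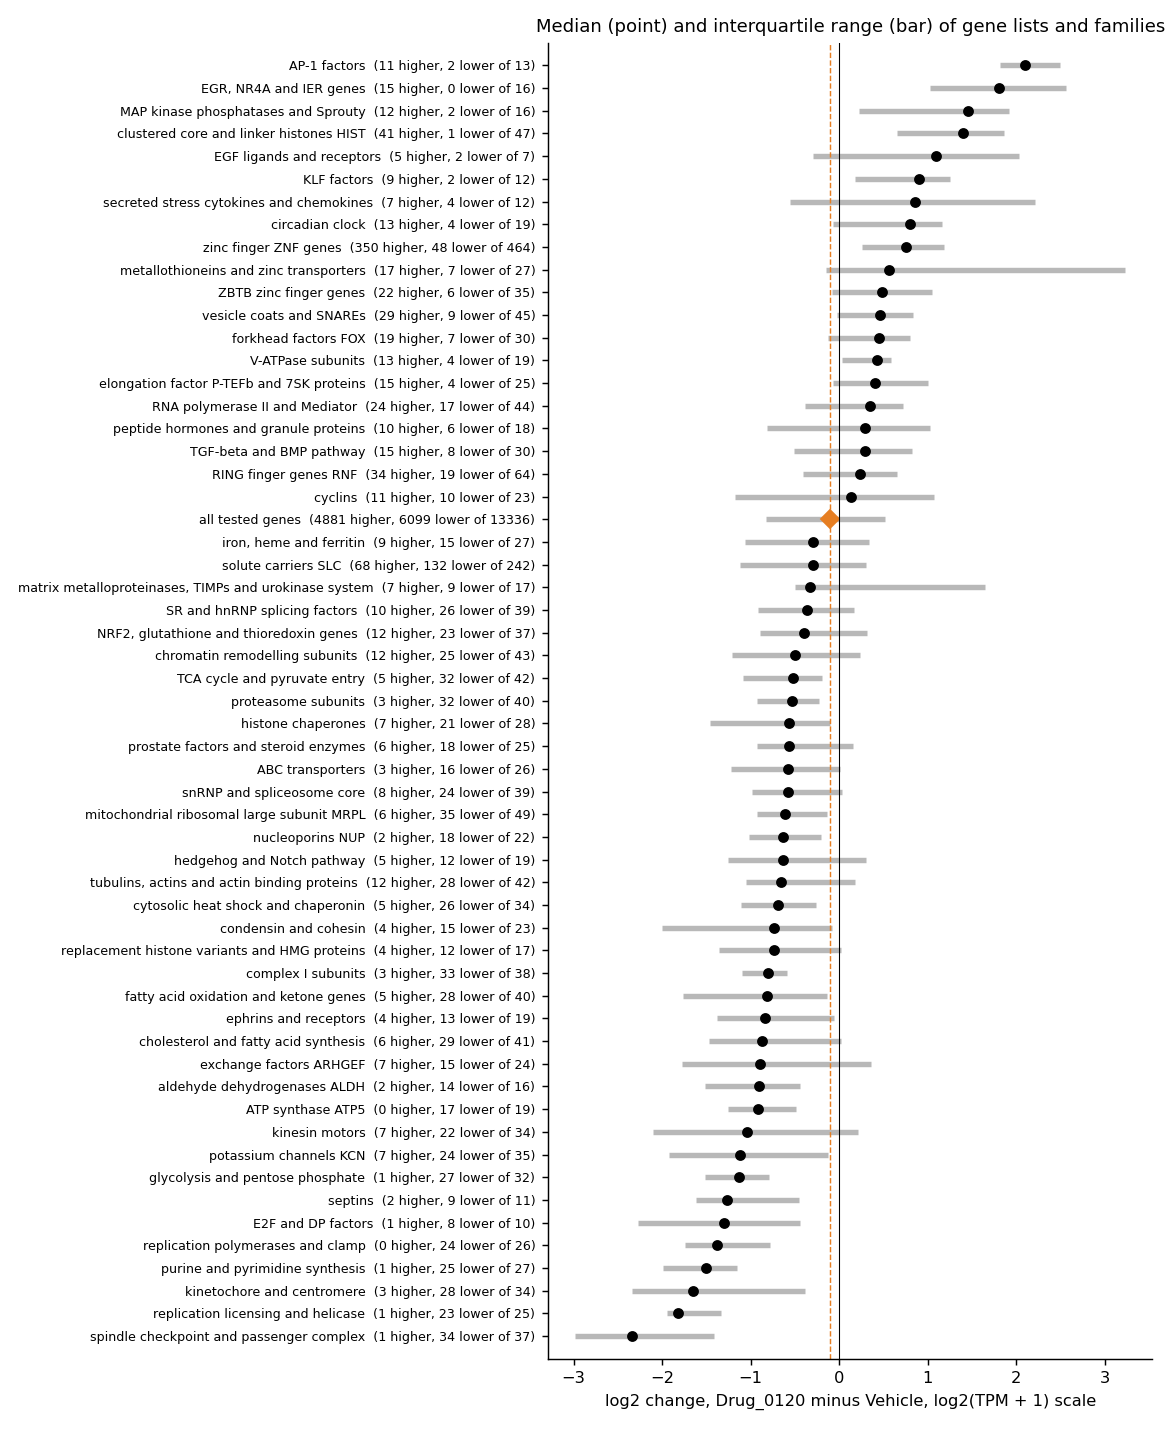
Median change (points) and interquartile range of the changes (bars) of each gene list and family described, on the log2(TPM + 1) scale, Drug_0120 minus vehicle, with the number called higher and lower of the number tested; the diamond and dashed line mark all tested genes. Spindle checkpoint genes lie lowest at -2.34 and AP-1 factors highest at 2.09, while all genes lie at -0.10.

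Nuclear genes of ATP synthase, complex I and the large mitochondrial ribosomal subunit mostly fell, and other mitochondrial lists had medians nearer to that of all genes (-0.10). Small-subunit ribosomal genes had 4 higher and 19 lower of 29 (median -0.38), and protein import genes 8 and 18 of 30 (-0.46). Cytochrome oxidase genes had 2 and 11 of 19 (-0.40), SLC25 carriers 9 and 22 of 41 (-0.31), and COA and SURF assembly genes 4 and 5 of 11 (-0.10). Of 19 ATP synthase genes, 17 fell and 0 rose (median -0.91). ATP5F1B, the catalytic beta subunit, had 729 and 724 TPM with Drug_0120, against 2139 and 2202 TPM in vehicle (log2 change -1.58 ± 0.053, limma adjusted p = 2.0e-08), and ATP5MC1, of the membrane ring, had 79.2 and 85.8 TPM with Drug_0120, against 394 and 429 TPM in vehicle (log2 change -2.31 ± 0.080, limma adjusted p = 2.3e-08). Of 38 complex I subunits, 33 fell and 3 rose (median -0.80). NDUFB10, of the membrane arm, had 84.7 and 84.4 TPM with Drug_0120, against 447 and 479.96 TPM in vehicle (log2 change -2.44 ± 0.063, limma adjusted p = 6.7e-09). Of 49 large-subunit mitochondrial ribosomal protein genes, 35 fell and 6 rose (median -0.61). MRPL12 and MRPL24 had 90.4 and 93.7 TPM and 155 and 155 TPM with Drug_0120, against 277 and 302 TPM and 435 and 438 TPM in vehicle.

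Genes of carbon use mostly fell, with a kinase of pyruvate entry as an exception. Of 42 genes of the TCA cycle and pyruvate entry, 32 fell and 5 rose (median -0.52). PDK4, a kinase that inhibits pyruvate dehydrogenase, had 499 and 458 TPM with Drug_0120, against 18.3 and 17.8 TPM in vehicle (log2 change 4.66 ± 0.079, limma adjusted p = 1.5e-09). MPC2, of the mitochondrial pyruvate carrier, had 50.2 and 49.7 TPM with Drug_0120, against 165 and 170.2 TPM in vehicle (log2 change -1.72 ± 0.055, limma adjusted p = 1.5e-08). PDP1, the phosphatase that opposes the kinase, also rose, with 25.4 and 24.3 TPM with Drug_0120, against 8.62 and 8.10 TPM in vehicle (log2 change 1.47 ± 0.095, limma adjusted p = 8.0e-07). IDH2, an isocitrate dehydrogenase, had 4.16 and 4.85 TPM with Drug_0120, against 51.9 and 50.99 TPM in vehicle (log2 change -3.25 ± 0.10, limma adjusted p = 1.6e-08), CS, citrate synthase, had 176 and 174 TPM with Drug_0120, against 453 and 444 TPM in vehicle, and ACLY, which turns citrate into acetyl-CoA for lipid synthesis, had 92.9 and 88.97 TPM with Drug_0120, against 289.7 and 278 TPM in vehicle. Of 32 glycolysis and pentose phosphate genes, 27 fell and 1 rose (median -1.13). The TPM sum over all 34 genes of the list was 7690 with Drug_0120 against 17284 in vehicle. PFKL, a phosphofructokinase, had 33.2 and 32.3 TPM with Drug_0120, against 221 and 226 TPM in vehicle (log2 change -2.73 ± 0.065, limma adjusted p = 4.9e-09). LDHA, which makes lactate, had 107 and 98.1 TPM with Drug_0120, against 837 and 695 TPM in vehicle (log2 change -2.88 ± 0.089, limma adjusted p = 1.3e-08), and SLC16A3, which exports it, had 11.1 and 11.3 TPM with Drug_0120, against 99.8 and 109 TPM in vehicle (log2 change -3.11 ± 0.10, limma adjusted p = 1.7e-08). TPI1 had 601 and 638 TPM with Drug_0120, against 2077 and 2169 TPM in vehicle, and SLC2A1, the glucose carrier, was the 1 member that rose, at 45.2 and 46.97 TPM with Drug_0120, against 38.2 and 38.1 TPM in vehicle (log2 change 0.27 ± 0.073, limma adjusted p = 0.0078), and did not pass without Drug_0120 replicate 2 (log2 change 0.24).

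Genes of fat breakdown and of fat synthesis both mostly fell. Of 40 genes of fatty acid oxidation and ketone metabolism, 28 fell and 5 rose (median -0.81). ACADM and DECR1, of mitochondrial beta-oxidation, had 16.5 and 15.6 TPM and 15.9 and 15.2 TPM with Drug_0120, against 68.7 and 72.3 TPM and 85.2 and 82.5 TPM in vehicle. The peroxisomal enzymes ACOX3 and ACAA1 rose; ACAA1, a thiolase, had 129.6 and 130.1 TPM with Drug_0120, against 72.7 and 79.4 TPM in vehicle (log2 change 0.77 ± 0.076, limma adjusted p = 1.3e-05). Of 41 cholesterol and fatty acid synthesis genes, 29 fell and 6 rose (median -0.87). SREBF1, the factor behind lipogenesis, had 19.5 and 19.98 TPM with Drug_0120, against 99.4 and 103 TPM in vehicle (log2 change -2.30 ± 0.072, limma adjusted p = 1.5e-08), and SCD, a desaturase, had 20.8 and 19.9 TPM with Drug_0120, against 104 and 98.3 TPM in vehicle (log2 change -2.26 ± 0.068, limma adjusted p = 1.2e-08). FDPS, of the isoprenoid branch, had 107 and 109.5 TPM with Drug_0120, against 372 and 383 TPM in vehicle, while SC5D, a late sterol enzyme, rose, with 71.6 and 68.9 TPM with Drug_0120, against 27.8 and 26.9 TPM in vehicle (log2 change 1.33 ± 0.10, limma adjusted p = 2.2e-06). Of 16 aldehyde dehydrogenases, 14 fell and 2 rose (median -0.90). ALDH1B1 had 4.85 and 3.76 TPM with Drug_0120, against 42.3 and 42.8 TPM in vehicle (log2 change -3.05 ± 0.11, limma adjusted p = 3.3e-08), and ALDH3A2, the fatty aldehyde enzyme and by far the most abundant of those named, had 738 and 727 TPM with Drug_0120, against 645 and 609 TPM in vehicle (log2 change 0.22 ± 0.062, limma adjusted p = 0.0085), and did not pass without vehicle replicate 2 (log2 change 0.18).

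Cytoskeletal genes lost much of their TPM. Of 42 tubulin, actin and actin-binding genes, 28 fell and 12 rose (median -0.66). The sum over all 44 genes of the list was 13543 TPM with Drug_0120 against 21429 TPM in vehicle. TUBB, a beta-tubulin, had 194 and 186 TPM with Drug_0120, against 1298 and 1334 TPM in vehicle (log2 change -2.79 ± 0.053, limma adjusted p = 2.2e-09), and TUBG1, of the microtubule-nucleating ring, had 45.1 and 49.6 TPM with Drug_0120, against 255 and 260.4 TPM in vehicle (log2 change -2.42 ± 0.086, limma adjusted p = 2.5e-08). ACTG1, cytoplasmic gamma-actin, had 2171 and 2223 TPM with Drug_0120, against 3983 and 4055 TPM in vehicle. ACTA2, the smooth muscle actin and a target of serum response factor, rose, with 42.8 and 43.7 TPM with Drug_0120, against 7.89 and 8.01 TPM in vehicle (log2 change 2.30 ± 0.074, limma adjusted p = 1.6e-08). Of 11 septins, 9 fell and 2 rose (median -1.27). SEPT9, needed for cytokinesis, had 25.9 and 25.1 TPM with Drug_0120, against 76.4 and 73.9 TPM in vehicle (log2 change -1.52 ± 0.063, limma adjusted p = 5.9e-08). Of 24 ARHGEF exchange factors for small GTPases, 15 fell and 7 rose (median -0.90). Among the 17 with at least 5 TPM in 2 libraries, 9 fell and 6 rose (median -0.41). ARHGEF25 had 0.485 and 0.319 TPM with Drug_0120, against 12.8 and 13.3 TPM in vehicle (log2 change -3.33 ± 0.10, limma adjusted p = 1.3e-08), and ARHGEF7 had 40.3 and 39.5 TPM with Drug_0120, against 20.7 and 21.4 TPM in vehicle (log2 change 0.89 ± 0.067, limma adjusted p = 2.1e-06).

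Potassium channels and ABC transporters had more falls than rises, and solute carriers were nearer to the balance of all genes. Of 35 potassium channel genes, 24 fell and 7 rose (median -1.12), and 17 fell and 3 rose of the 20 with at least 5 TPM in 2 libraries (median -1.75). KCNH6, a channel of the ERG type, had 16.6 and 17.7 TPM with Drug_0120, against 269 and 278 TPM in vehicle (log2 change -3.92 ± 0.068, limma adjusted p = 1.6e-09). KCNK1, a leak channel, rose, with 42.1 and 41.6 TPM with Drug_0120, against 16.6 and 17.5 TPM in vehicle (log2 change 1.25 ± 0.072, limma adjusted p = 3.9e-07). Of 242 SLC carriers, 132 fell and 68 rose (median -0.30), which is 54.5% lower and 28.1% higher, against 45.7% lower and 36.6% higher among all genes. The SLC35 family had 8 higher and 7 lower of 23. The nucleoside carriers SLC29A1 and SLC29A2 had 5.80 and 6.62 TPM and 26.6 and 26.9 TPM with Drug_0120, against 80.1 and 81.2 TPM and 122 and 125 TPM in vehicle. SLC45A3, a prostate-restricted carrier induced by androgen, had 8.17 and 6.85 TPM with Drug_0120, against 90.4 and 92.6 TPM in vehicle (log2 change -3.45 ± 0.085, limma adjusted p = 6.1e-09). Of 26 ABC transporters, 16 fell and 3 rose (median -0.58), and 11 fell and 3 rose of the 20 with at least 5 TPM in 2 libraries (median -0.24). ABCC4, an exporter of cyclic nucleotides, had 0.621 and 0.460 TPM with Drug_0120, against 7.94 and 7.46 TPM in vehicle (log2 change -2.50 ± 0.13, limma adjusted p = 1.7e-07), while ABCC5 and ABCC1, of the same subfamily, rose, with 37.96 and 35.6 TPM and 34.9 and 33.8 TPM with Drug_0120, against 18.01 and 18.1 TPM and 26.2 and 25.7 TPM in vehicle.

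Prostate lineage factors parted from each other. Of 25 genes on a list of prostate factors and steroid enzymes, 18 fell and 6 rose (median -0.57). HOXB13, a homeobox factor of prostate identity, had 43.3 and 45.1 TPM with Drug_0120, against 115 and 117 TPM in vehicle (log2 change -1.37 ± 0.060, limma adjusted p = 8.0e-08). FOXA1, a pioneer factor that opens chromatin, rose, with 321 and 311 TPM with Drug_0120, against 215 and 212 TPM in vehicle (log2 change 0.56 ± 0.052, limma adjusted p = 8.5e-06). NR3C1, the glucocorticoid receptor, rose, with 50.2 and 41.5 TPM with Drug_0120, against 10.5 and 9.76 TPM in vehicle (log2 change 2.07 ± 0.11, limma adjusted p = 2.9e-07). ETV5, an ETS factor downstream of ERK signalling, had 56.5 and 52.3 TPM with Drug_0120, against 9.99 and 8.57 TPM in vehicle (log2 change 2.43 ± 0.087, limma adjusted p = 2.6e-08).

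Changes were related to features of the transcripts. Across 13241 genes with a known transcript sequence, the change correlated with GC content at r = -0.24, with the log2 of exon number at r = -0.14 and with the log2 of transcript length at r = 0.088, as descriptions over genes of the same libraries. Across 13336 genes it correlated with the log2 vehicle level at r = -0.25, and the vehicle level also enters the change itself. In the lowest decile of GC content, 49.9% rose and 29.96% fell (median 0.25), and in the highest decile 20.4% rose and 65.7% fell (median -0.71). Of 395 single-exon genes, 224 rose and 111 fell (median 0.43), and without the HIST genes 193 of 359 rose and 110 fell (median 0.37). Of the 905 genes with 26 or more exons, 27.5% rose and 50.4% fell. The part of GC content in any single result was tested only by the GC-corrected alternative, in which 5933 genes were higher and 5358 lower.

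**Figure D5:**
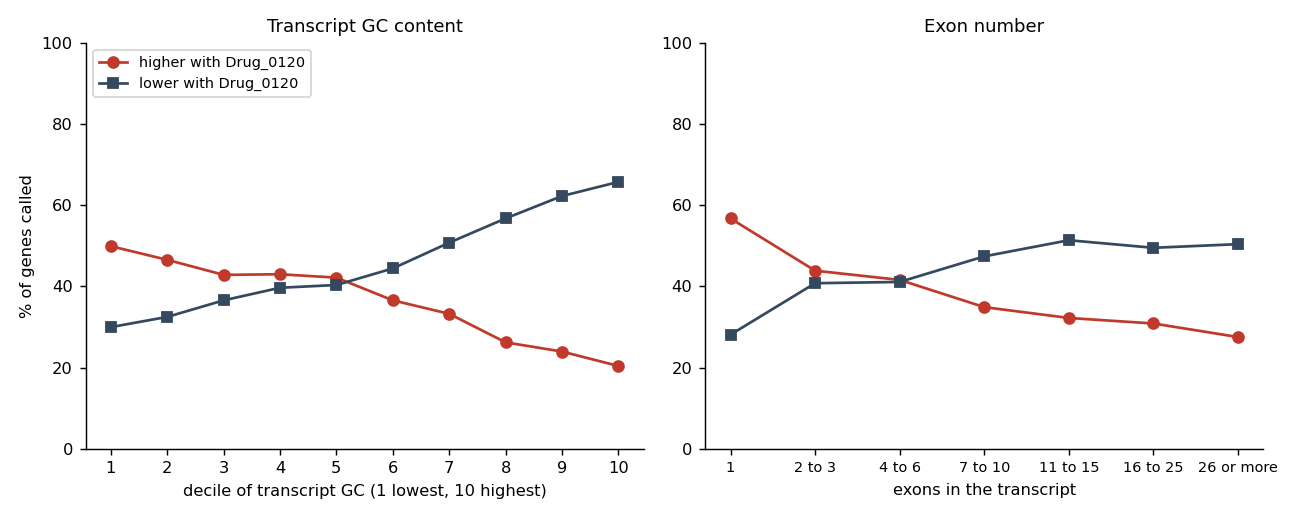
Percent of genes called higher (red) and lower (dark blue) with Drug_0120, by decile of transcript GC content (left) and by exon number (right). The share called higher declines from 49.9% in the lowest to 20.4% in the highest GC decile, and is 56.7% in single-exon genes.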

How the data were processed

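Libraries were made from polyA RNA of 22Rv1 cells with an mRNA kit, per the labels' protocols. The authors' deposited table holds TPM per gene for each library; STAR, StringTie and hg19 are named in the submitters' processing notes, without versions or settings. TPM are not counts and keep no depth, so read depth per library is unknown and intervals for counting error are not given. Of 20315 rows, 18 repeat a pseudoautosomal gene and were dropped, 27 symbols that a spreadsheet had turned to dates were restored from the identifiers, and 19751 of the 20297 genes kept had a symbol in the name table. Rows without a symbol stayed in the test.

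The comparison was fitted with limma 3.58.1 in R 4.3.3 on log2(TPM + 1) of all 6 libraries, with a mean per group, a mean-variance trend, no replicate block, and Benjamini-Hochberg adjustment over 13336 genes. The fit was also run on simulated data in which 200 genes were changed, far fewer than were called here. It therefore cannot show how the fit behaves when most genes differ. Shares of TPM were compared by an exact permutation test over the 4 libraries. Tables and drawings used Python 3.11.15, pandas 2.3.3, numpy 2.4.6, scipy 1.17.1 and matplotlib 3.10.9.

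Genes named are the 15 largest rises and falls with adjusted p under 0.05, at least 20 TPM in the higher group and no overlap; the 10 largest gains and losses in mean TPM; up to 4 members of each direction per list with the largest moderated statistic, or all members of lists of 10 or fewer; and the linker histones, KLK3, MYC and MKI67. Clone names and pseudogenes were not named, and some genes that the rule takes are not reported here. The comparison, the gene lists and the families were chosen with earlier results of these data known. Lists are described by counts and medians, and no set test was run. Promoters came from the RefSeq table (GRCh38.p14), with 10645 of 13336 genes matched by symbol, and were searched on both strands. Alternatives were another filter, pseudocount, scaling, GC correction, no trend, the replicate block, only 4 libraries in the fit and leaving out each library.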

Additional observations from a re-analysis of the deposited data

How the results depend on the processing

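Every alternative left between 4175 and 5933 genes higher and between 5052 and 6778 lower, each within 1.5 times the reported count. Leaving out 1 library at a time gave 4454 to 4935 higher and 5718 to 6145 lower, and 9.08 to 10.3 percentage points more TPM outside the table with Drug_0120 than in vehicle; with 1 library left in a group, that library is assumed to vary like the other groups. The higher genes were 44.5% of calls as reported and 52.3% to 52.5% with each table rescaled, after quantile normalization or after GC correction, which moved the median of all genes to between 0.049 and 0.065. Changes of at least 2-fold, 1570 higher and 2741 lower as reported, became 2139 and 2407 with each table rescaled. They were 2060 and 2192 after quantile normalization and 1942 and 2047 after GC correction. Of 56 lists, 1 changed its majority direction: the median of matrix proteases, TIMPs and the urokinase system was 0.19 after GC correction. List medians moved by over 1.5 times for 11 lists with each table rescaled, 2 under median-of-ratios scaling, 19 after quantile normalization, 16 after GC correction and 4 with the filter at 5 TPM. Of 267 named genes, RPS2 (0.074), E2F4 (0.091) and NELFA (0.17) changed sign after GC correction and then did not pass the test, and 5 lost their call under some alternative, as given beside their values. The causes were not tested. Depth is unknown for TPM, so no limit from counting error can be given.

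The replicate numbers were not stated to mark shared cultures or days. With the replicate block, 5122 genes were higher and 6296 lower, 1572 and 2741 of them by at least 2-fold, and no named gene lost its call. Deviations of same-numbered libraries correlated at 0.184 between Drug_0120 and vehicle, 0.143 between Drug_0120 and Drug_CN27 and 0.166 between Drug_CN27 and vehicle, a hint from the data rather than the design.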

Other observations

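A family outside the lists above was close to silent in vehicle. The 26 USP17L genes, near-identical deubiquitinase copies that lie in tandem repeats, summed to 37.0 and 35.8 TPM with Drug_0120, against 0.0480 and 0.0829 TPM in vehicle. Of these, 6 passed the level filter, and no copy exceeded 0.0411 TPM in a vehicle library. Both Drug_0120 libraries were far above both vehicle libraries. Reads cannot be assigned with confidence to single copies, so only the sum is given; the family was chosen after its values were seen, and no test was made.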
